A study of Mus musculus with 2 samples.

Results

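Gene deserts are long stretches of a chromosome without protein-coding genes. Here they were taken as the autosomal sequence more than 250 kb from any protein-coding gene of GENCODE vM21 on GRCm38 (mm10), so a desert is the interior of a longer gene-free interval and is named by the gene on each side. This gave 607 deserts on all 19 autosomes, 399.5 of 2395.9 Mb or 16.7%, with a median length of 371 kb, 126 deserts over 1 Mb and 4.17 Mb as the greatest length. They hold 2200691 of the 20383623 CpG sites of the autosomes (10.8%). The deposited data cover 1334691 desert sites of 13366464 autosomal sites in replicate 1 and 434909 of 4882356 in replicate 2.

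SCoTCH-seq reads unmodified cytosine (C), 5-methylcytosine (M) and 5-hydroxymethylcytosine (H) on both strands of a CpG in 1 read pair, which gives 9 CpG states with the plus strand named first. It was run on genomic DNA of 2 libraries, replicate 1 and replicate 2, from different passages of E14 cells, a line of male mouse embryonic stem cells grown in serum and LIF without any treatment. There is 1 condition and 1 cell line, and the medium had 10% FBS by the sample labels and another share by the study's methods. States that mirror each other are given together, so the levels are those of CC, MM, MC/CM (hemimethylated), HC/CH, HM/MH and HH, each as the percent of all calls.

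DNA methylation is placed on CpG sites by DNMT enzymes and copied to the new strand after replication, and a CpG that has not yet been copied, or that lost the mark on a single strand, reads as hemimethylated. TET enzymes oxidise 5-methylcytosine to 5-hydroxymethylcytosine, which is known to be richest in active gene bodies and enhancers. Gene deserts are poor in G, C and CpG and rich in repeats, replicate late as a rule, and often lie at the nuclear lamina. Some of them flank genes of developmental regulators and hold distant enhancers of these genes.

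The sequences show what desert CpG sites look like. The first line is 300 bases around the CpG that lies farthest from a protein-coding gene of all sites covered in both replicates (chr8:51177223, 2.33 Mb away, in the desert between Tenm3 and Aga), and it shows the sparse end of desert sequence. The others are the 200 bases with the most CpG sites in 6 desert windows of 1 kb low in methylation described further on, those with the most covered sites. All are from the plus strand of GRCm38, 5′ to 3′, with each CG in capitals.
Farthest site, chr8:51177074-51177373: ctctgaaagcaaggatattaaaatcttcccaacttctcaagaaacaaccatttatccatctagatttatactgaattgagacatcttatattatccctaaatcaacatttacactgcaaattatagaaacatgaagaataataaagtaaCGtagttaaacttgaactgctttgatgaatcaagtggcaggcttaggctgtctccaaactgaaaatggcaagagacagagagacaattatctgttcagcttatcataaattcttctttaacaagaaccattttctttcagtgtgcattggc
Window between Hpcal1 and 5730507C01Rik, chr12:18135789-18135988: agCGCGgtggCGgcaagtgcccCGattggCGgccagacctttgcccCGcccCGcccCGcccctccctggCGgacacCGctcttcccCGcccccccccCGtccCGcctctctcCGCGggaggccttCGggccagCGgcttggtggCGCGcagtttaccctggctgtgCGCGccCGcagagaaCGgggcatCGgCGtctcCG
Window in the pseudogene Gm48525, between 5730507C01Rik and Gm21863, chr12:19176001-19176200: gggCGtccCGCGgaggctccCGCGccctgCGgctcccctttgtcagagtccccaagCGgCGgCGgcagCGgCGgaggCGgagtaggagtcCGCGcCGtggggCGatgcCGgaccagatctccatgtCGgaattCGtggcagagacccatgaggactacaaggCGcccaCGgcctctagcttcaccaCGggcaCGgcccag
First window between Npvf and Nfe2l3, chr6:51173781-51173980: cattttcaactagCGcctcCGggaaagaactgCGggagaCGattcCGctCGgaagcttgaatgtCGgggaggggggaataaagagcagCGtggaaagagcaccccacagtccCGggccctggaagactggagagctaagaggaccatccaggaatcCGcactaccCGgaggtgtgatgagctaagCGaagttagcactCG
Second window between Npvf and Nfe2l3, chr6:51178596-51178795: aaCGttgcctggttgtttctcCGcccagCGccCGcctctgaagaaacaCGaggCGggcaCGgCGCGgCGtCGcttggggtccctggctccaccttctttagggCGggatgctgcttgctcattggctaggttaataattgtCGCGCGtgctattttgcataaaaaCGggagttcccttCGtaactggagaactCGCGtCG
Window between Prkd1 and G2e3, chr12:50943756-50943955: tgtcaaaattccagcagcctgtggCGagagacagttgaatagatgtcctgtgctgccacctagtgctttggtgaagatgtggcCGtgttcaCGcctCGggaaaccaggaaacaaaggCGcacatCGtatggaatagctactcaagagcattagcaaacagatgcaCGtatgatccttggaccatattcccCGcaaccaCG
Last window between Npvf and Nfe2l3, chr6:51170004-51170203: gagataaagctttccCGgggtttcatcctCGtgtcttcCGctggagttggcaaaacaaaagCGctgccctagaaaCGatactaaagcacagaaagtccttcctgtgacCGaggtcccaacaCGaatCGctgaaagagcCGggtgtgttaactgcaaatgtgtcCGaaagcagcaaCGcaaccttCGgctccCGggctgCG

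The farthest site is the single CpG of its 300 bases, with 4 CpG sites within 500 bp on either side, itself included. Replicate 1 read it 7 times, as MM in 3 calls, HC/CH in 2, MC/CM in 1 and CC in 1. Replicate 2 read it 8 times, as MM in 6 calls and CC in 2. The stretches from the windows hold 26, 23, 13, 20, 9 and 14 CpG sites in the order printed.

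Deserts have a GC content of 38.4%, against 41.9% for the autosomes as a whole, and 5.51 CpG sites per kb against 8.51. The median CpG of the reference has 7 CpG sites within 500 bp in deserts and 12 elsewhere, and 40.1% of desert CpG sites are repeat-masked against 22.8%. Deserts are not free of annotation: 530 of them hold 3418 genes of other kinds, among them 1257 processed pseudogenes and 784 lincRNA genes, and these genes contain 11% of the covered desert sites in replicate 1 and 11.1% in replicate 2. By the rule, 3 deserts hold antigen receptor loci, whose gene segments are not annotated as protein-coding. The share of an autosome's bases that lies in deserts ran from 9.47% on chromosome 19 to 26.3% on chromosome 12.

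Replicate 1 had 14697543 calls in deserts and replicate 2 had 2726983, at a median depth of 10 and 6 calls per site. The data cover 60.6% and 19.8% of the reference CpG sites of deserts, and 66.2% and 24.5% of those elsewhere. Of the covered desert sites 19.9% and 16.2% are repeat-masked, fewer than in the reference. A site entered the deposited data only with at least 5 calls, so the shallower replicate 2 holds fewer of them, and 408871 desert sites are in both. In 7 deserts neither replicate covers a site.

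Desert CpG sites were mostly methylated on both strands. In the replicates MM made up 61.3% and 66.2% of calls (mean 63.8 ± 3.48, SD, n = 2). CC took 17% and 13.8% (15.4 ± 2.24) and hemimethylated MC/CM 15.2% and 16.5% (15.9 ± 0.86), so the order of these states differed between the replicates. HC/CH took 2.44% and 1.84% of calls (2.14 ± 0.425), and HM/MH took 3.6% and 1.58% (2.59 ± 1.43). HH was the rarest at 0.403% and 0.0686%. The counting error of these levels is far smaller than the difference between replicates: the exact 95% Clopper-Pearson interval of HC/CH was 2.436 to 2.452% and 1.828 to 1.860%. Such intervals cover counting error only.

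The replicates differ in how often the spike-in duplexes were miscalled, and this bears on the hydroxymethylated states. Duplexes whose usual call is MM were miscalled as HM/MH at a rate of 4.51% in replicate 1 but 0.467% in replicate 2, and as HH in 0.709% and 0.0117%. Those whose usual call is MC were miscalled as HC, and CM as CH, at a rate of 3.49% in replicate 1 and 0.615% in replicate 2. With the call rates of each replicate inverted, the level of HC/CH in deserts was 1.84% and 1.71%, that of HM/MH 0.613% and 1.23%, and that of HH −0.0896% and 0.0531%. The corrected HC/CH of the replicates thus lay closer together than the called one, and HM/MH changed its order between the replicates. No HH above the miscalling of MM was detectable in deserts of replicate 1. With negative corrected levels set to 0, the hydroxymethylated states summed to 6.45% as called and 2.45% corrected in replicate 1, where all other autosomal sites had 8.77% and 5.14%. Replicate 2 had sums of 3.49% and 2.99% in deserts and of 6.57% and 6.16% elsewhere. Levels further on are as called, miscalls included, unless given as corrected.

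The level of HC/CH was lower with each step away from genes beyond 10 kb. It was 4.48% in replicate 1 and 4.01% in replicate 2 inside protein-coding genes. Within 10 kb of a gene it was 4.53% and 4.24%, and from 10 to 50 kb it was 4.23% and 3.84%. From 50 to 250 kb the level was 3.42% and 2.94%. In deserts it was 2.66% and 2.04% from 250 to 500 kb, then 2.22% and 1.64% up to 1000 kb, and 2.10% and 1.47% beyond. So each band from 10 kb outwards was lower than the one before it in both replicates. HM/MH took the same course from 3.99% and 2.22% at 50 to 250 kb to 3.42% and 1.30% beyond 1000 kb. Corrected for miscalls, HM/MH went from 1.05% and 1.86% to 0.438% and 0.953% between these bands. Corrected HC/CH went from 2.84% and 2.86% to 1.48% and 1.32%. CC did not take this course. As called it was 31.1% and 28.3% within 10 kb and had dropped to 16.8% and 14% at 50 to 250 kb. It was then 16.3% and 13.3% at 250 to 500 kb and 17.7% and 14.4% beyond 500 kb.

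**Figure D1:**
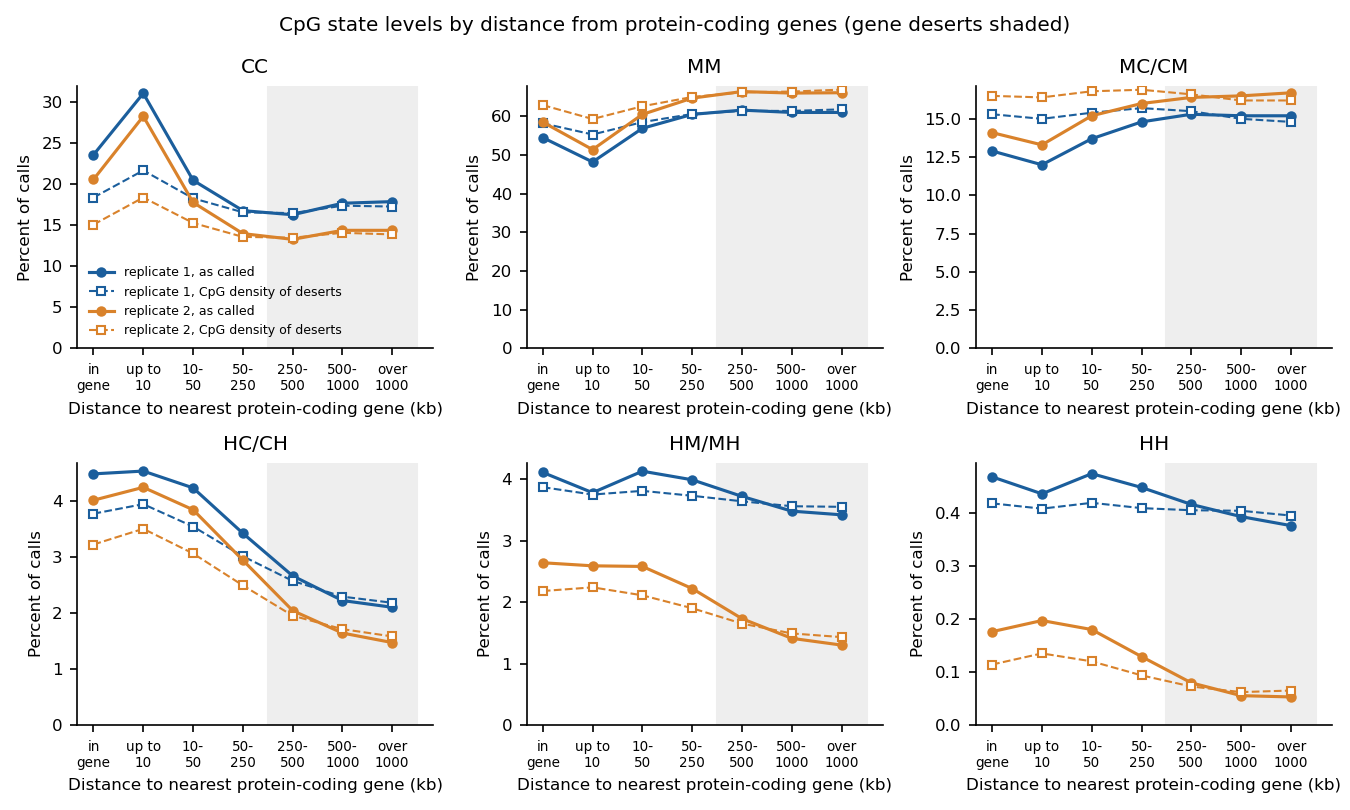
Level of each CpG state (percent of calls, y axis) by distance to the nearest protein-coding gene (x axis, kb) in replicate 1 and replicate 2, as called (filled) and weighted to the local CpG density of deserts (open), with deserts shaded. HC/CH goes from 4.48% and 4.01% inside genes to 2.10% and 1.47% beyond 1000 kb, while CC is 16.8% and 14% at 50 to 250 kb and 17.7% and 14.4% beyond 500 kb.

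Deserts were compared with the nearer intergenic sites, 50 to 250 kb from a gene, within each autosome. The question was whether deserts differ from intergenic sequence that is merely closer to genes. HC/CH was lower in deserts by a mean of 0.969 percentage points over autosomes in replicate 1 and 1.10 in replicate 2, in 19 of 19 autosomes of each. The differences ran from −1.32 to −0.643 in replicate 1 and from −1.54 to −0.714 in replicate 2, so no autosome came near 0 (adjusted p = 6.54e-06 in both, exact sign-flip permutation test, two-sided, the unadjusted p being 3.81e-06, the smallest that 19 autosomes allow). HM/MH was lower by 0.376 and 0.646 and HH by 0.0445 and 0.0608 percentage points, again in 19 of 19 autosomes of each replicate and with the same adjusted p of the exact test. For HH in replicate 1 the corrected level was below 0 at nearer intergenic sites too, at −0.0508%, so no HH above the miscalling of MM was detectable in either class there. MM was higher by 0.911 percentage points in replicate 1, in 17 of 19 autosomes (adjusted p = 1.46e-04, exact test), and by 1.67 in replicate 2, in 19 of 19. The call for MM was lost with at least 10 calls per site and with deserts taken from 500 kb, and with distance to any annotated gene its mean difference was −0.147. Autosomes and CpG sites of a library are not replicates of the condition, and these p-values measure the spread over autosomes.

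CC and MC/CM gave no such clear answer. The difference in CC was −0.0423 percentage points in replicate 1 and −0.365 in replicate 2, with adjusted p = 0.846 and 0.202 of the exact test. MC/CM was higher in deserts by 0.521 and 0.510, in 18 and 17 of 19 autosomes. Deserts hold more sites in sparse sequence, however, and weighted to the same local CpG density MC/CM turned lower, by a mean over both replicates of 0.398 percentage points, which passed the test too. Weighted in that way the differences in hydroxymethylated states shrank and still passed, HC/CH having a mean of −0.606 percentage points, HM/MH −0.227 and HH −0.0158. With distance to any annotated gene HC/CH was −0.589 and the call for HH was lost.

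**Figure D2:**
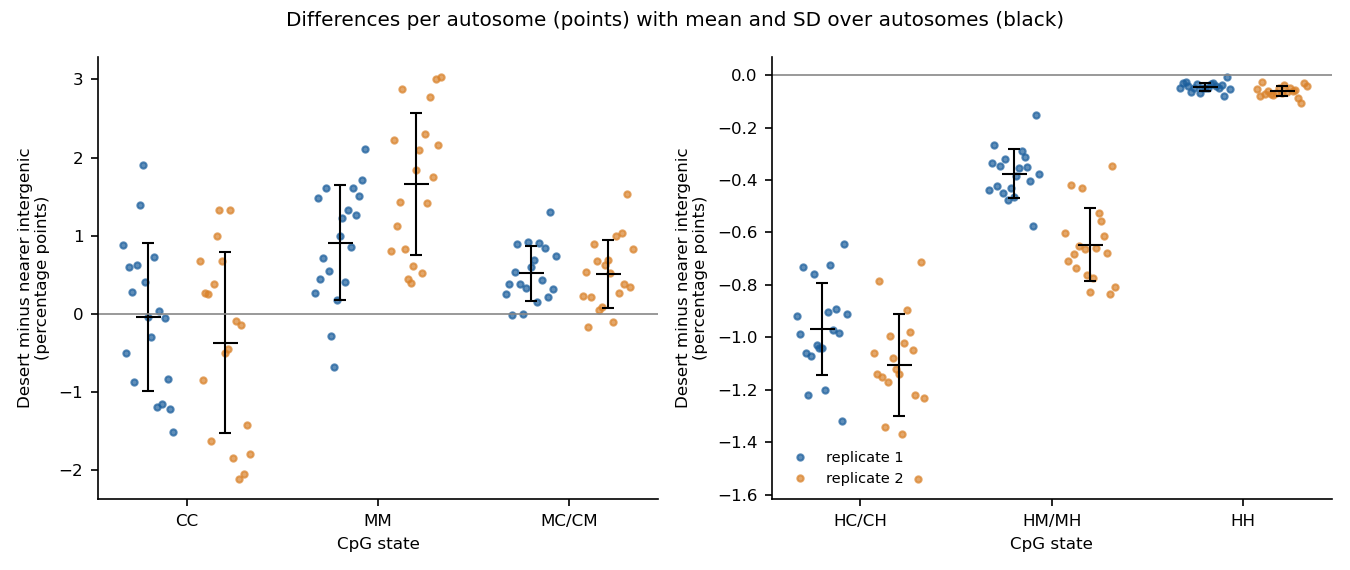
Difference between deserts and intergenic sites 50 to 250 kb from genes (percentage points of calls, y axis) for each CpG state (x axis), 1 point per autosome, with the mean and SD over the 19 autosomes in black. For HC/CH all points are negative, from −1.32 to −0.643 in replicate 1 and from −1.54 to −0.714 in replicate 2, while those of CC lie on both sides of 0.

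Against all other autosomal sites, genes and promoters included, every state differed in 19 of 19 autosomes of both replicates (adjusted p = 3.81e-06 in each test, the smallest the exact permutation over autosomes can give). CC was lower in deserts by 5.94 and 6.34 percentage points. MM was higher by 6.20 and 7.34 and MC/CM by 2.05 and 2.07. HC/CH was lower by 1.80 and 1.99 and HM/MH by 0.449 and 0.979. For HH the difference was −0.0591 and −0.103 percentage points. At equal CpG density these differences were smaller but still passed in both replicates, with a mean of −1.70 for CC and 3.34 for MM. HC/CH was then −1.18, HM/MH −0.372 and HH −0.028. The corrected HH of replicate 1 was −0.0896% in deserts and −0.00475% at the other sites. No HH above miscalling was thus detectable in either class of that replicate. The excess of MC/CM did not hold at equal density, with a mean difference of −0.0574 percentage points. The direction of the CC difference was not the same in every density class, as given further on. Density was matched only by 4 classes, the densest of them open above 16 sites within 500 bp. In that class CC was 17% and 14.5% in deserts against 41.5% and 38.8% elsewhere, and density within it was not matched. Hemimethylated calls made up 19.9% of MC/CM and MM together in deserts in either replicate, and 19.4% and 19.7% at the other sites.

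Deep inside deserts HC/CH was lower still. Sites more than 500 kb from a gene (598540 in replicate 1, 190732 in replicate 2, in 254 deserts) had less HC/CH than desert sites at 250 to 500 kb, by 0.435 and 0.421 percentage points in the replicates, in 19 of 19 autosomes of each (adjusted p = 1.53e-05 in both, exact sign-flip permutation test). HM/MH was lower by 0.235 in 19 of 19 and by 0.325 in 18 of 19 autosomes. HH was lower by 0.0252 and 0.0201, but its corrected level in replicate 1 was below 0 in both bands, at −0.0989% and −0.0819%. CC was higher by 1.19 and 0.907, in 15 and 13 autosomes (adjusted p = 0.0142 and 0.049, exact test), and the difference in replicate 1 was 6.75 percentage points on chromosome 7 and 4.23 on chromosome 8. The calls for CC and HH were lost when weighted by CpG density, with mean differences of 0.669 and −0.00386, and when sites had to be covered in both replicates. At equal density HC/CH was lower by a mean of 0.246 percentage points and HM/MH by 0.116, both still called. No difference passed in both replicates for MM (−0.529 and −0.389) or MC/CM (0.0357 and 0.248), but at equal density MC/CM was lower in far sites by a mean of 0.352 percentage points, which passed.

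Local CpG density went along with every level. In deserts HC/CH rose with the number of CpG sites within 500 bp, from 2.01% and 1.42% at 1 to 4 sites, through 2.31% and 1.70% at 5 to 8 and 3.02% and 2.42% at 9 to 16, to 4.15% and 3.59% above 16. Elsewhere the levels were 2.74% and 2.21%, 3.49% and 2.96%, 4.70% and 4.17%, and 5.07% and 4.91%. Desert sites were therefore lower in each of the 4 classes and in both replicates. CC parted most in the densest class, at 17% and 14.5% in deserts and 41.5% and 38.8% elsewhere. In the sparsest class CC was higher in deserts, at 19% and 15.5% against 17.9% and 14.4%. At 5 to 8 sites CC was nearly equal, at 16.6% and 13.5% against 16.7% and 13.6%. MC/CM went the other way from HC/CH, with 16.5% and 17.8% in the sparsest class of deserts and 10.7% and 12.3% in the densest. Elsewhere MC/CM was 17.2% and 18.5% in the sparsest class and 8.16% and 9.44% in the densest. The densest class held 5.22% and 4.18% of desert sites and 23.6% and 22.1% of the others.

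**Figure D3:**
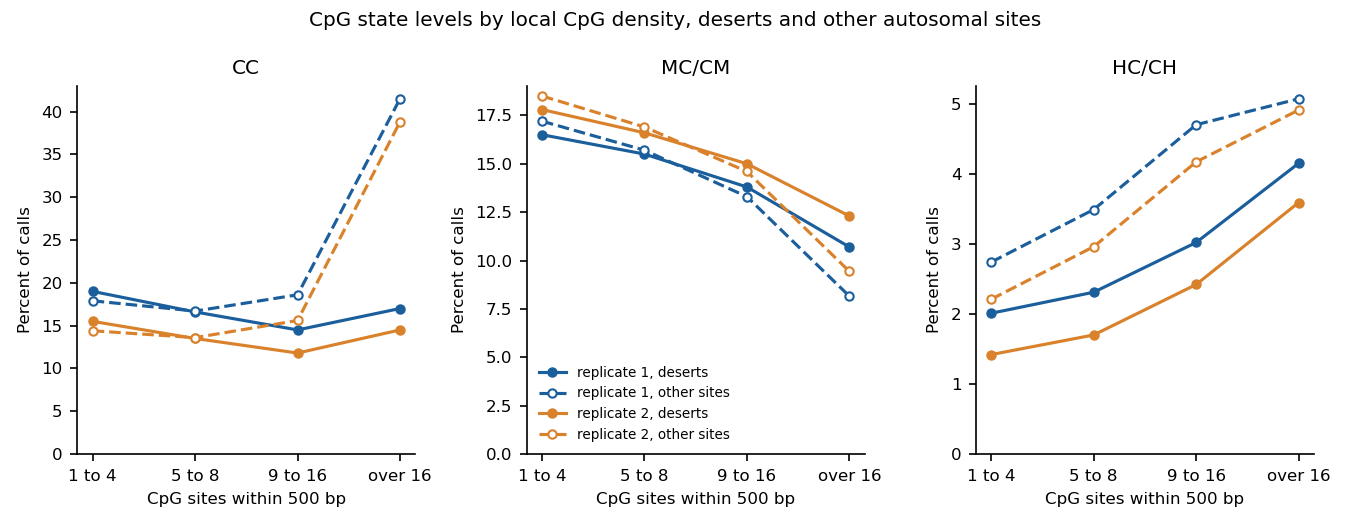
Levels of CC, MC/CM and HC/CH (percent of calls, y axis) by the number of CpG sites within 500 bp (x axis), for desert sites (filled, solid) and other autosomal sites (open, dashed) of each replicate. HC/CH of deserts is below that of other sites in all classes, and CC above 16 sites is 17% and 14.5% in deserts against 41.5% and 38.8%.

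The bases beside the CpG went with the states as well. Of the 10 contexts of 4 bases, with strands merged, desert HC/CH was highest at ACGG, with 2.93% and 2.37%. As called it was lowest at GCGC, with 1.81% in replicate 1, and at TCGA, with 1.28% in replicate 2. Corrected for miscalls, the lowest in replicate 1 was GCGA at 1.25%, against 1.31% at GCGC. Hemimethylation was most common at TCGA (17.5% and 19.0%) and least at GCGC (12.1% and 12.8%). MM was highest at GCGC (68.5% and 72.4%) and lowest at ACGT (55.8% and 62.3%). At all other autosomal sites HC/CH was also highest at ACGG (5.12% and 4.7%). Hemimethylation there was again most common at TCGA (16.2% and 17.6%) and least at GCGC (10.2% and 11.2%). MM there was also lowest at ACGT (51.9% and 57.2%) but highest at ACGC (56.8% and 60.4%). Repeat-masked desert sites had less HC/CH than unmasked ones, by 0.215 percentage points in 19 of 19 autosomes of replicate 1 and 0.202 in 17 of 19 of replicate 2, given as a description.

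Swapping the strands of the reference made no difference that passed in both replicates. HC minus CH was −0.00995 percentage points in replicate 1 and 0.00961 in replicate 2, and HM minus MH was −0.0119 and 0.0121, each with opposite signs. MC was read more often than CM in replicate 1, with an excess of 0.0748 percentage points in 19 of 19 autosomes (adjusted p = 2.29e-05, exact sign-flip permutation test). In replicate 2 the excess was 0.0819, in 16 of 19 autosomes (adjusted p = 0.111, exact test), so the call did not hold in both.

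Autosomes differed little from each other in their deserts, and the replicates ranked them alike. Desert HC/CH ran from 2.27% on chromosome 17 to 2.91% on chromosome 13 in replicate 1 (SD over autosomes 0.150), and from 1.61% on chromosome 16 to 2.29% on chromosome 13 in replicate 2 (SD 0.152). Chromosome 8 had the most CC, 19.8% and 16.6%, and the least MM, 59.4% and 64.4%. Chromosome 13 had the least CC, 15% and 11.7%. Over the 19 autosomes, which share their libraries, Spearman's rho between replicates was 0.965 for MM, 0.936 for CC and 0.906 for HC/CH, but 0.614 for HM/MH and 0.432 for HH.

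Single deserts spread more widely. In the 463 deserts with at least 200 covered sites in each replicate, MM had a median of 62.1% in replicate 1 and 67.1% in replicate 2 and ran from 40.4 to 70% and from 44.7 to 75.7%. HC/CH had a median of 2.41% and 1.76% and ran from 1.32 to 5.81% and from 0.809 to 5.22%. Across these deserts, read in the same libraries at the same sites in part, Spearman's rho between replicates was 0.967 for CC, 0.925 for MM, 0.823 for HC/CH and 0.371 for HH. HC/CH of a desert went with its CpG sites per kb (rho = 0.686 in replicate 1 and 0.635 in replicate 2) and with its GC content (0.739 and 0.662), and against its length (−0.468 and −0.388) and masked share (−0.607 and −0.496). MM went with CpG sites per kb only weakly (0.266 and 0.18).

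**Figure D4:**
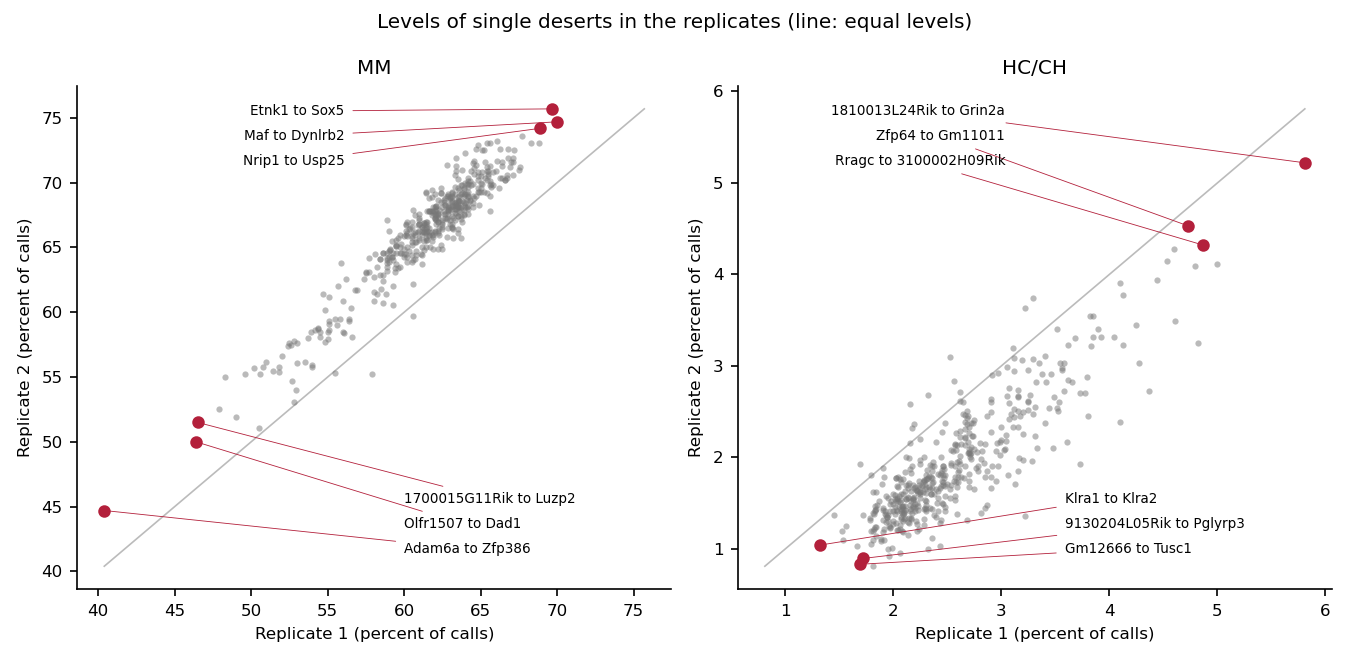
MM (left) and HC/CH (right) of the 463 deserts with at least 200 sites per replicate (percent of calls, replicate 1 on the x axis and replicate 2 on the y axis), with the 3 highest and 3 lowest in red and a line of equal levels. Most deserts lie above the line for MM and below it for HC/CH, and the desert between 1810013L24Rik and Grin2a is the highest in HC/CH at 5.81% and 5.22%.

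The 6 longest deserts had HC/CH from 1.43 to 2.35% over both replicates, with MM from 58.9 to 68.6%. All were below the median desert in HC/CH except Celf4 to Pik3c3 in replicate 2, at 1.80% against 1.76%. The longest is that between Tenm3, a teneurin of synapse formation, and Aga, a lysosomal enzyme (chr8:49093952-53261726). It had 58.9% and 64.6% MM, 20.1% and 16.4% CC and 2.16% and 1.52% HC/CH. Those between Pcdh20 and Pcdh9 (4.04 Mb) and between Olfm4 and Pcdh17 (3.92 Mb), all on chromosome 14, border genes of protocadherins, which are adhesion proteins of neurons. The others were Celf4 to Pik3c3 (4.02 Mb), Cntnap5b to Cdh20 (3.78 Mb) and Slc39a10 to Tmeff2 (3.51 Mb).

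The 3 deserts highest in MM were short, with 258, 559 and 246 covered sites in replicate 2 in the order below. Over the 463 deserts MM went against length only weakly (Spearman's rho = −0.149 and −0.115). Etnk1 to Sox5 had 69.7% and 75.7% MM with 8.12% and 4.17% CC, Maf to Dynlrb2 had 70% and 74.7% MM, and Nrip1 to Usp25 had 68.9% and 74.2%. Sox5 and Maf encode transcription factors, and Nrip1 a corepressor of nuclear receptors. The 3 together ranged from 4.17 to 9.20% in CC.

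The lowest MM was found in a pair of antigen receptor loci and on chromosome 7. Adam6a to Zfp386, the immunoglobulin heavy chain locus with 149 annotated segments (chr12:113796466-115797723), had 40.4% and 44.7% MM, 45.1% and 41.8% CC and 1.52% and 1.19% HC/CH. Olfr1507 to Dad1, the T-cell receptor alpha/delta locus with 121 segments (chr14:52745750-53985478), had 46.4% and 50.0% MM, 33.8% and 29.1% CC and 3.22% and 3.63% HC/CH. The data cover 35.4% and 17.3% of the CpG sites of the heavy chain locus, at a mean depth of 17.4 and 8.84, and 20% and 7.53% of those of the T-cell receptor locus, at 11.8 and 6.81. Over all deserts the mean depth was 11 and 6.27, and whether coverage bears on these levels was not tested. The other desert of the lowest MM was 1700015G11Rik to Luzp2, of 2.32 Mb, with 46.5% and 51.5% MM, 36.3% and 32.7% CC and 1.84% and 1.14% HC/CH.

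The 3 deserts highest in HC/CH by the mean of their ranks in the replicates were shorter than the median desert, and richer in CpG and GC than deserts as a whole. 1810013L24Rik to Grin2a, beside the gene of a glutamate receptor subunit, had 5.81% and 5.22% HC/CH and 22.8% and 21.4% CC. Rragc to 3100002H09Rik had 4.87% and 4.32% HC/CH, and Zfp64 to Gm11011 had 4.73% and 4.53%. At the other end by the same ranking, Gm12666 to Tusc1 had 1.69% and 0.830% HC/CH with 33.1% and 29.4% CC, while 9130204L05Rik to Pglyrp3 had 1.72% and 0.894% with 13.5% and 9.46% CC. Low HC/CH was thus seen in deserts with much CC and in deserts with little. Klra1 to Klra2, within the cluster of Ly49 receptor genes of natural killer cells, had 1.32% and 1.04%, with 34.8% and 16.7% of its sites covered at a mean depth of 16.9 and 8.26. Whether reads from related copies of these genes bear on the level was not tested.

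By the mean of its ranks in the replicates, HM/MH was highest at 5.05% and 3.35%, between Cd83 and Jarid2, the gene of a subunit of Polycomb repressive complex 2. Corrected for miscalls it was 2.24% and 2.99%, and HC/CH in the same desert was 5.00% and 4.11%. Close to it were Gm11361 to Sox4 with 4.83% and 3.31% HM/MH, Stt3b to Gadl1 with 4.80% and 3.31%, and 1810013L24Rik to Grin2a with 4.75% and 3.43%, the last being the highest in replicate 2. All these deserts were also above the medians of HC/CH.

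No difference between deserts beside genes of transcription factor families and the rest passed in both replicates. In the 86 deserts flanked by a gene of such a family, HC/CH was higher than in other deserts of the same autosome by 0.388 percentage points in 11 of 17 autosomes of replicate 1 and by 0.329 in 13 of 16 of replicate 2 (adjusted p = 0.0654 in both, exact sign-flip permutation test). The differences in MM were 1.24 and 0.826 percentage points (adjusted p = 0.141 and 0.268, exact test) and those in CC −1.49 and −0.773. The median desert had 2.41% and 1.76% HC/CH. Of the members of this list, Maf to Dynlrb2 had 2.48% and 1.69%, and Etnk1 to Sox5 had 3.13% and 1.71%. Both were above the median in replicate 1 and below it in replicate 2. Sox2 to Atp11b, beside the gene of the pluripotency factor SOX2, had 4.61% and 3.49% HC/CH and 62.2% and 67% MM. Med13l to Tbx3 had 4.44% and 3.94% HC/CH, Sall1 to Tox3 had 3.25% and 2.62%, and Kcnj2 to Sox9 had 2.58% and 1.73%. Irx3 to Irx5 had 4.20% and 4.55%, the latter over 154 sites. The last 5 were chosen after their values were seen and mostly lie above the median, so they do not stand for the list.

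Inside deserts, sites within genes that are not protein-coding had more HC/CH than the remaining desert sites, by 0.247 percentage points in 16 of 19 autosomes of replicate 1 and by 0.283 in 15 of 18 of replicate 2 (adjusted p = 0.00682 and 0.00101, exact sign-flip permutation test). HM/MH was higher by 0.137 and 0.267, and MC/CM was lower by 0.459 and 0.349 (adjusted p = 0.0163 and 0.0154, exact test). With sites weighted to the same local CpG density, none of these calls held as called, and the mean difference in HC/CH was 0.156 percentage points. The reason for this change was not tested. Weighted and corrected for miscalls, HC/CH passed at 0.163. CC, MM and HH did not pass in both replicates.

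Windows low in methylation were rare among the desert windows that could be measured. A window of 1 kb was counted as low in methylation where CC made up at least 50% of calls in each replicate over at least 5 sites each. This held for 13.5% of the autosomal windows that had enough sites (39094 of 289526) and for 2.31% of the desert windows (224 of 9714). The share went with CpG density: it was 5.34% against 1.68% in deserts for up to 15 CpG sites per window, 15.5% against 4.29% for 16 to 30, and 83.3% against 29.0%, or 18 of 62, for over 30. The share in deserts was lower in each class. With at least 10 covered sites in each replicate it was 11.9% of desert windows (24 of 201) against 43.2% of all windows. A median low window of the deserts held 13 CpG sites, against 10 for all measured desert windows. The 9714 measured windows of 1 kb lie in 399.5 Mb of deserts, so most desert sequence was not measured in this way.

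**Figure D5:**
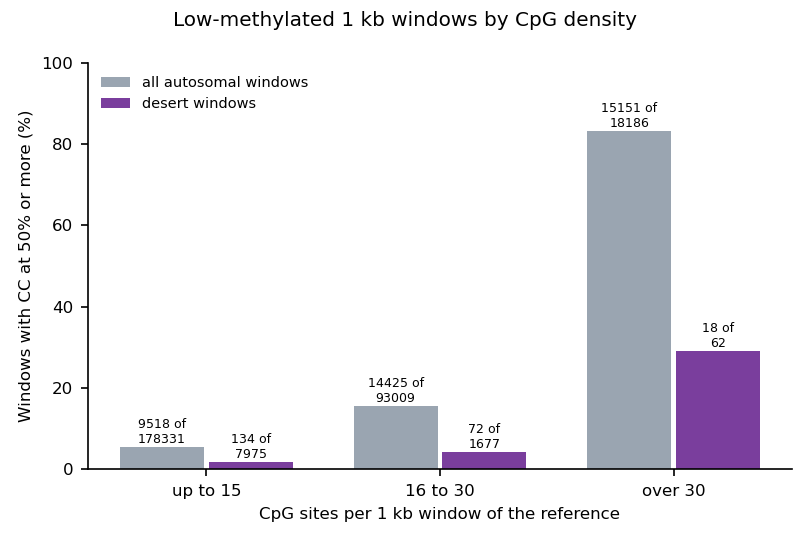
Share of 1 kb windows with CC at 50% or more of calls in both replicates (percent, y axis) by the number of reference CpG sites in the window (x axis), for all autosomal windows and desert windows, with counts above the bars. In the densest class the share is 83.3% for all windows and 29.0%, 18 of 62, in deserts.

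The 224 windows were spread over 137 deserts. Of them 45 (20.1%) overlapped a gene that is not protein-coding, 32 (14.3%) a lincRNA gene and 6 (2.68%) a pseudogene, against 16.1%, 12.4% and 1.70% of all desert windows. More than 50% repeat-masked were 21 (9.38%), against 6.29%. These shares were not tested. Pooled, they had 71.9% and 71.8% CC, which chose them, and 17% and 17.5% MM. Their HC/CH was 3.75% and 3.57%, against 3.19% and 2.50% in the remaining desert windows, whereas MC/CM was 5.19% and 5.43%, against 13.9% and 14.9%. These are descriptions, since calls of CC leave fewer for the other states.

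The windows shown above are those with the most covered sites, and their CC differed. Both dense windows of chromosome 12, of which that in Gm48525 overlaps a processed pseudogene, had 89.8% and 88.4% CC, and 96.7% and 97.9% CC. The desert between Npvf, a neuropeptide gene, and Nfe2l3 held 5 low windows of the 47 measured. Its second window had CC in 99.5% and 100% of calls over 26 and 14 sites, the first 95.4% and 95.6% over 24 and 18 sites, and the one printed last 87.2% and 82.7% over 38 and 13 sites. All lie 254 to 262 kb from the nearest gene, just inside the limit. The window between Prkd1 and G2e3 was only partly unmethylated, with 64.8% and 55.7% CC and 21.6% and 28.9% MM.

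By desert, the heavy chain locus had the most low windows, 8 of 33 or 24.2%, at a mean depth of 37.7 and 15 calls per site, above that of the locus as a whole. Sall3 to Galr1 had 6 of 132. Between 1810013L24Rik and Grin2a, the desert richest in HC/CH, 4 of 21 windows were low, and between Sox2 and Atp11b 4 of 105. The core motif of the insulator protein CTCF, searched as CCANNAGNNGGC on both strands, was present in 20 low desert windows (8.93%) and in 3.26% of the desert windows that were not low. Over all measured autosomal windows it was present in 11.2% of low and 6.65% of other windows. It was present in 7.27% of all measured autosomal windows and 3.39% of all measured desert windows. A match is thus a description and not a binding site, and windows with too few covered sites are not included.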

How the data were processed

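SCoTCH-seq data of 2 replicates of E14 cells were used. The authors trimmed reads (cutadapt 4.6, per the submitters' processing notes, which also name Picard 3.1.1), aligned them to mm10, called a CpG state per read pair, removed blacklisted regions and sites under 5 calls, and deposited the count of each of the 9 CpG states per site, the depth and the percent of calls. The deposited percent values were recomputed from the counts and were equal. Neither is corrected for miscalls. Spike-in counts deposited by the authors gave the call rates, with the usual call of a duplex position taken as its true state, and negative corrected levels were kept.

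Every deposited autosomal position falls on a CpG of GRCm38. Levels are calls summed over sites. Distances were taken to genes whose type is protein_coding in GENCODE vM21. Differences were computed per autosome with at least 500 sites in each class and tested per replicate with an exact sign-flip permutation over autosomes, two-sided, adjusted by Benjamini-Hochberg over the 12 tests of a comparison (6 for strands). A difference was called where both replicates had an adjusted p of at most 0.05 and the same sign. Levels at equal CpG density use 4 classes of CpG sites within 500 bp. In a comparison, the class subtracted was weighted to the density mix of the class it was subtracted from. That mix is of deserts against nearer or all other sites, and of the far, transcription factor or noncoding sites otherwise. Levels by distance were weighted as in deserts. Transcription factor families were matched by 79 symbol prefixes.

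Named were the 6 longest deserts and, with at least 200 sites per replicate, the 3 highest and lowest in MM and HC/CH, the 3 highest in HM/MH by the mean of their ranks in the replicates, and the 6 low windows with the most sites in the less covered replicate. The values of 1 desert are not reported here. The members, lists and rules were chosen with earlier results of these data known. Steps were tested on simulated data. Python 3.11.15, NumPy 2.4.6, pandas 2.3.3, SciPy 1.17.1 and Matplotlib 3.10.9 were used. The alternatives tried were a depth minimum of 10, per-site means, sites in both replicates, other distances and gene sets, correction, CpG density, repeats and leaving out a replicate.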

Additional observations from a re-analysis of the deposited data

How the results depend on the processing

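HC/CH was lower in deserts than at nearer intergenic sites in both replicates under all alternatives tried, by a mean over replicates of 0.589 to 1.28 percentage points, and lower than at all other sites by 1.18 to 2.14. Between far and near desert sites it was lower by 0.245 to 0.471, and passed in each alternative where the test could pass. The values below are means over the replicates in percentage points, and the causes of the changes were not tested.

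Deserts against nearer intergenic sites: with at least 10 calls per site CC was 0.291, MM 0.85 and MC/CM 0.402, with the last 2 no longer called. With deserts taken from 500 kb, CC was 0.376 and MM 1.03, not called. With distance to any annotated gene, CC was 0.853 and MM −0.147, and MC/CM (0.206) and HH (−0.0328) were lost. At equal CpG density CC was 0.128 and MC/CM −0.398, at equal density with correction 0.144 and −0.439, and at equal density outside repeats 0.208 and −0.333, the sign of both being turned each time and MC/CM called. Against all other sites, MC/CM at equal density was −0.0574, with correction added −0.115 and at equal density outside repeats 0.0112, not called.

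Far against near desert sites: with at least 10 calls per site, replicate 2 kept only 5 autosomes, too few for the exact test to pass, so the values of CC (0.457), HC/CH (−0.424), HM/MH (−0.201) and HH (−0.0262) could not be called. With sites in both replicates CC (1.03) and HH (−0.0212) were lost. At equal density CC was 0.669 and HH −0.00386, both lost, MM 0.0477, turned and not called, and MC/CM −0.352, turned and called. At equal density with correction CC was 0.687, HH −0.00235 and MM 0.0511, none called, and MC/CM −0.375, called. At equal density outside repeats CC (0.804) and HH (−0.00528) were lost and MC/CM was −0.299, not called. With antigen receptor segments counted as genes CC was 1.04, not called.

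For transcription factor deserts MC/CM turned to 0.0957 at equal density, to 0.1 with correction added and to 0.0898 at equal density outside repeats. For noncoding genes, sites in both replicates lost MC/CM (−0.317) and HM/MH (0.206). At equal density CC was 0.0415, MM −0.208 and HH −0.00216, all turned, and MC/CM (−0.0834), HC/CH (0.156) and HM/MH (0.096) were lost. At equal density with correction CC was 0.0402, MM −0.225, HH −0.0019, MC/CM −0.0831 and HM/MH 0.107. At equal density outside repeats CC was 0.011, MM −0.121, HH −0.00145, MC/CM −0.137, HC/CH 0.149 and HM/MH 0.099. Both comparisons could not be fitted with at least 10 calls per site, since no autosome of replicate 2 had enough sites. By per-site means HC minus CH was 0.00118 and HM minus MH −0.00183.

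With a replicate left out, the far minus near difference in MC/CM ran from 0.0357 to 0.248, called without replicate 1, and for noncoding genes CC ran from −0.556 to 0.0851 and MM from −0.0125 to 0.337. MC minus CM ran from 0.0748 to 0.0819, called without replicate 2, HC minus CH from −0.00995 to 0.00961 and HM minus MH from −0.0119 to 0.0121. Low windows ran from 3.31% to 3.54% of desert windows (14.9% to 16% of all windows), and were 0.885% (8.58%) at 70% CC and 11.9% (43.2%) with at least 10 covered sites. Corrected desert levels were 14.9% MC/CM, 0.92% HM/MH and −0.0182% HH. Over all results and alternatives, 394 values kept their direction and side of the threshold, or stayed within the spread, 35 turned, 29 lost a call, the 4 that could not pass included, 2 gained one, and 6 moved.

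The alternatives that combine CpG density with correction or repeats, leave out repeats, count antigen receptor segments or narrow the family symbols were chosen after seeing the data. No paired analysis was possible because the 2 replicates form 1 group. There are 2 libraries of a single condition and line, with a median depth of 6 calls in replicate 2. Miscalls of MM as HM/MH or HH, and of MC/CM as HC/CH, differ between the libraries. Called levels of HC/CH carry the latter, and levels of HM/MH and HH are the least certain.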
